A study of Mus musculus with 10 samples.

Results

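The genes described here are the 10 atypical cadherin and core planar polarity genes Fat1, Fat3, Fat4, Dchs1, Celsr1, Celsr2, Celsr3, Vangl1, Vangl2 and Prickle1. They were chosen by name, with earlier results of these data known, and matched by symbol. They are 10 of the 56748 genes listed in each count file. All 10 had reads in every library and passed the filter on low counts, as did 18163 genes in all. RNA-seq read counts came from cortex, or dorsal telencephalon, of mouse embryos at E12.5, with 5 libraries labelled Emx2 KO and 5 labelled WT. Emx2 encodes a homeobox transcription factor of the dorsal telencephalon. The labels give no strain, sex, knockout allele or number of embryos per library, and do not say whether each library is a separate embryo, so the tests reflect library-to-library spread that can be technical in part.

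Planar cell polarity is the alignment of cells within the plane of an epithelium. Fat and Dachsous proteins are very large cadherins that bind each other across neighbouring cells, with Fat4 and Dchs1 as the best known mammalian pair. The core polarity proteins form complexes at cell borders, where Celsr cadherins bridge adjacent cells and carry Frizzled and Dishevelled on the side facing Vangl and Prickle. In the developing forebrain these genes are known for roles in neural tube closure, cortical progenitors, neuronal migration, ciliary orientation and axon tracts.

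Library totals ran from 9720840 to 35674113 counts, so a CPM value (reads of a gene per 1e6 reads of its library, scaled by TMM) stands on more reads in some libraries than in others. The smallest count of a member in any library was 63, for Vangl1. Totals formed 2 classes, 5 large and 5 small, and within each of the title codes 241022, 14922 and 31022 the genotypes are of opposite class, so within a code size class and genotype cannot be told apart. Emx2 itself stood at 94.6 to 146 CPM in the knockout and 175 to 207 CPM in the wild-type libraries, lower but not absent (log2 fold change -0.59 ± 0.10, SE, edgeR adjusted p = 0.00176). Counts over the whole gene do not show which part is deleted. The antisense gene Emx2os was counted apart, at 17.5 to 22.2 CPM in the knockout and 29.6 to 39.9 CPM in wild type. Its log2 fold change was -0.80 ± 0.09 (SE, edgeR adjusted p = 8.37e-05). The strand setting is not given, so reads in any sequence that Emx2 and Emx2os share cannot be told apart. The dorsal telencephalic transcription factor genes Emx1 and Tbr1 were present in every library, Emx1 at 131 to 174 CPM in the knockout and 103 to 118 CPM in wild type, and Tbr1 at 384 to 479.8 CPM and 248 to 296 CPM. Both were higher in the knockout (edgeR adjusted p = 0.00039 and 5.31e-05), and they were picked from a longer marker list after their values were seen. Of the 7 markers in that list 6 were called higher and 0 lower by edgeR (5 higher by limma-voom). Lhx2 (log2 fold change -0.04) was not called. The sum of the list was 2464 to 2885 CPM in the knockout and 2057 to 2335 CPM in wild type.

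The polarity genes split by member. Fat3 fell by 46.4%, Celsr3 and Dchs1 rose by 47.3% and 36.7%, and Fat1 and Celsr2 rose by 14.9% and 12.9%. Fat4, Celsr1, Vangl1, Vangl2 and Prickle1 did not pass the test. In all 4 of 10 members were called higher and 1 lower (edgeR quasi-likelihood test, adjusted p under 0.05), where over all genes tested 22.4% were called, 13.1% higher and 9.37% lower. Most members are abundant, and among the 2576 genes with a mean of at least 100 CPM the share called was 42%, with 30.2% higher and 11.8% lower. The 8 members of that abundance held all 5 calls, 4 higher and 1 lower, and with 8 genes this count shows nothing particular to them. The median log2 fold change was 0.05 over the members and -0.01 over all genes tested.

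To show the start regions of the members that fell and rose most among the 7 found in the RefSeq promoter table (build GRCm38.p6), the 250 bases before the annotated start of Fat3 and Celsr3 are given on the gene's strand. The letters TAATTA, a homeodomain core that reads the same on both strands, were searched for in this window. They occurred in 4.84% of 32851 promoters of this length and in none of the windows of the 7 members, so no letters are in capitals. G and C made up 70.4% of the Fat3 window and 58% of the Celsr3 window, where the median promoter had 52.4%. The Fat3 window is chr9:16502055-16502304 on the minus strand and the Celsr3 window is chr9:108825795-108826044 on the plus strand.
Fat3: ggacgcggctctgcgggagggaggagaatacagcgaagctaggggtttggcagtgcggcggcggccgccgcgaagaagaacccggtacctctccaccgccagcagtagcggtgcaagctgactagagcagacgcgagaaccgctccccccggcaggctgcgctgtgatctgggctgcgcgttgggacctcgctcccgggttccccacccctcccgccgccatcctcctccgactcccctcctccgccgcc
Celsr3: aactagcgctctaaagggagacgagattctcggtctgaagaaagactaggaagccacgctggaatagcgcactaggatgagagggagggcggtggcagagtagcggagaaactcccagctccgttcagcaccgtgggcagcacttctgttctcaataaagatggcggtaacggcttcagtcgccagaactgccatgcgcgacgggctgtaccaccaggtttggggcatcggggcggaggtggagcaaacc

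**Figure D1:**
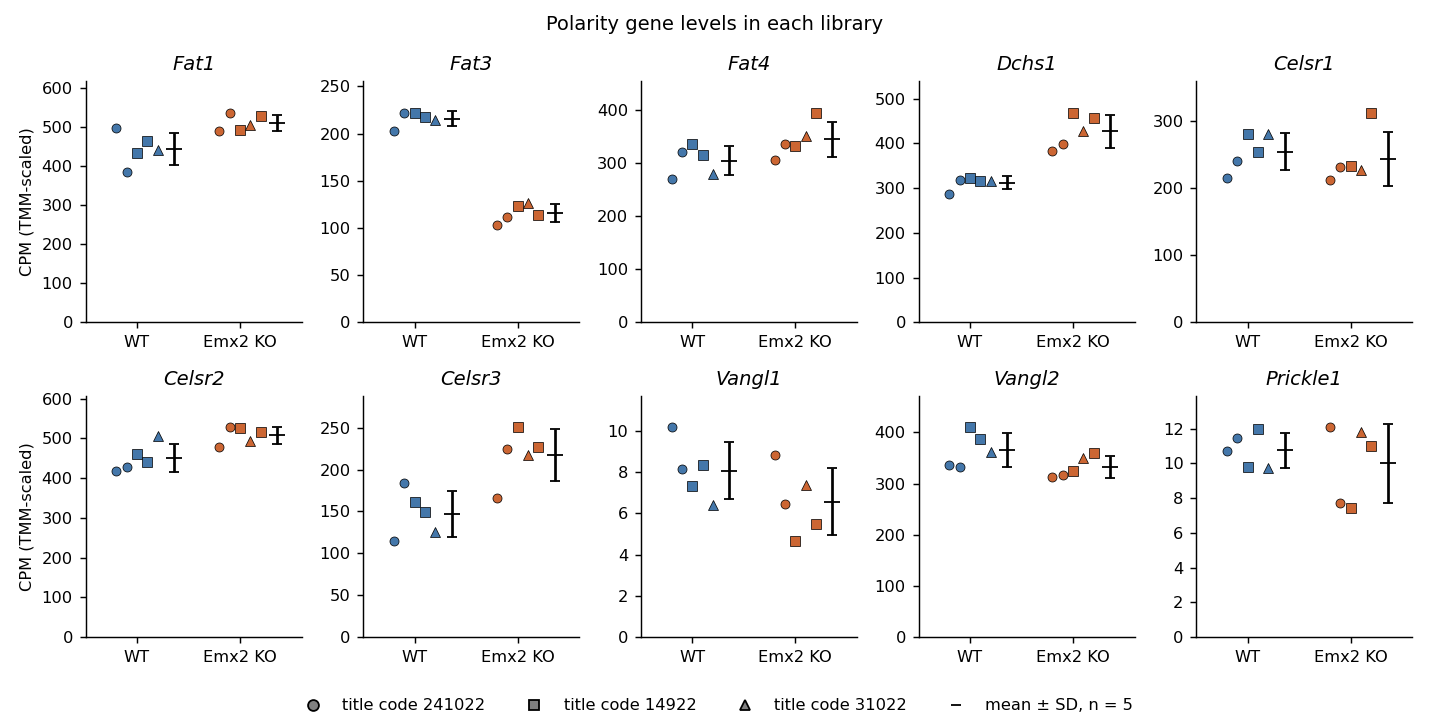
TMM-scaled CPM (vertical axis, from 0) of each of the 10 polarity genes in every library, by genotype (horizontal axis), with marker shape for the title code and a bar for mean ± SD of 5 libraries. All Fat3 points of the knockout (highest 126 CPM) lie under the lowest wild-type point (203 CPM), and all Dchs1 points of the knockout (lowest 383 CPM) lie over the highest wild-type point (322 CPM).

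Fat3 encodes an atypical cadherin known for shaping neuronal dendrites in the retina. Its level was 103, 112, 124, 126 and 114 CPM in knockout replicates 1 to 5 and 203, 221, 222, 218 and 215 CPM in wild-type replicates 1 to 5. The groups were far apart, and every knockout library lay well under the lowest wild-type library. The means were 116 ± 9.44 and 216 ± 7.69 CPM (SD, n = 5 each), and the log2 ratio was -0.90 ± 0.05 (SE, edgeR adjusted p = 1.92e-06). By p-value Fat3 ranked 15th of the 18163 genes tested, and 13 genes with a mean of at least 100 CPM had a more negative log2 fold change. Within code 241022 the log2 fold change was -0.98 and within code 14922 it was -0.90 (adjusted p = 0.0108 and 0.00602). Among the 5 large libraries it was -0.95, and among the 5 small ones -0.84, with no title code shared by the genotypes in either class. No other annotated gene shares exon sequence with Fat3 in the GENCODE mouse annotation.

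The share of Fat3 among the Fat cadherins is taken from the same values and restates its fall. A smaller Fat3 level by itself raises the shares of Fat1 and Fat4. Per exon length, it made up 16.6% to 19.2% of the summed Fat1, Fat3 and Fat4 level in the wild-type libraries and 8.54% to 10.2% in the knockout libraries. The share of Fat1 was 45.9% to 55.7% in wild type and 54.4% to 58.1% in knockout, and that of Fat4 was 27.7% to 34.9% and 33.0% to 37.0%. The ranges of Fat1 and of Fat4 overlapped between the genotypes, whereas those of Fat3 did not.

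Over the same libraries the summed level of 8 choroid plexus markers was 254 to 307 CPM in wild type and 57.6 to 93.1 CPM in the knockout, with 6 of 8 lower. The sum of 6 cortical hem markers was 157 to 232 CPM in wild type and 48.1 to 113 CPM in the knockout, with 5 lower, and all 8 markers of multiciliated cells were lower. No marker of these lists was at 0 over all libraries. Their part in the fall of Fat3 was not tested, and in bulk tissue fewer cells of a type cannot be told apart from less RNA per cell.

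Dchs1, the ligand-type cadherin that binds Fat4, was the member raised with the smallest p-value. Knockout replicates 1 to 5 had 383, 399, 469, 428 and 457 CPM, and wild-type replicates 1 to 5 had 288, 319, 322, 317 and 316 CPM. The groups did not overlap, which held for 16.7% of all genes tested. Means of 427 ± 36.8 and 312 ± 13.9 CPM (SD, n = 5 each) gave a log2 fold change of 0.45 ± 0.06 (SE, edgeR adjusted p = 0.000261). It was 0.53 within code 14922 (adjusted p = 0.00978) and 0.37 within code 241022, where it did not pass (adjusted p = 0.0872). An annotated gene on the opposite strand covers 5.86% of the Dchs1 exon sequence, and with no strand setting stated its reads cannot be told apart.

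Fat4, the receptor of that pair, stood at 306, 336, 332, 351 and 395 CPM in the knockout and 271, 321, 335, 314 and 280 CPM in the wild-type libraries. Most knockout libraries were above most wild-type libraries, but the groups overlapped. The log2 fold change was 0.18 with a 95% interval of 0.01 to 0.34 and did not pass (edgeR adjusted p = 0.117). It was 0.03 in the large libraries alone (adjusted p = 0.834) and 0.32 in the small ones (adjusted p = 0.144). In each class the genotypes come from different title codes. Antisense genes cover 8.68% of the Fat4 exon sequence. The Fat4 interval ends close to where that of Dchs1 (0.32 to 0.58) begins, and the difference between these genes was not tested.

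Fat1, a cadherin tied to actin organisation and to growth control, had 491, 538, 493, 505 and 530 CPM in the knockout and 497, 386, 433, 466 and 442 CPM in wild type. Wild-type replicate 1 lay within the knockout range and the other wild-type libraries lay under it. The log2 fold change was 0.20 ± 0.06 (SE, edgeR adjusted p = 0.0355). The call was lost in 7 of 10 fits that left out 1 library, with adjusted p from 0.0509 to 0.0922 without knockout replicate 2, 4 or 5 or wild-type replicate 2, 3, 4 or 5. It was also lost with title code as a block (adjusted p = 0.0570) and with size class as a block (adjusted p = 0.0538). With upper-quartile scaling (0.16, adjusted p = 0.0916) or total counts alone (0.15, adjusted p = 0.0993) Fat1 did not pass either.

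Celsr3, the Celsr cadherin of postmitotic neurons and of axon tract formation, had the highest fold change among the members, while Dchs1 rose by more in CPM. It stood at 166, 224, 250, 218 and 227 CPM in knockout replicates 1 to 5 and 115, 184, 161, 149 and 125 CPM in wild-type replicates 1 to 5. Knockout replicate 1 fell below wild-type replicate 2, and the other knockout libraries were above all wild-type libraries. Means were 217 ± 31.2 and 147 ± 27.8 CPM (SD, n = 5 each), with a log2 fold change of 0.56 ± 0.13 (SE, edgeR adjusted p = 0.00964). The difference was 0.61 within code 14922 (adjusted p = 0.0146) and 0.39 within code 241022 (adjusted p = 0.447). Among large libraries it was 0.38 and among small ones 0.75, and neither passed (adjusted p = 0.0715 and 0.0853). In each of these classes the genotypes come from different title codes.

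Some neuronal markers were higher in the same libraries. Of 8 neuronal markers 3 were higher (Tubb3, Dcx and Stmn2) and 0 lower (0 lower also at an unadjusted p under 0.05 and by DESeq2 and limma-voom), and their sum was 3503 to 4589 CPM in the knockout and 2424 to 3780 CPM in the wild-type libraries. The other 5 did not pass, among them Map2 (log2 fold change 0.11), Neurod1 (0.01) and Neurod6 (-0.31). Celsr3 equalled 4.73%, 5.86%, 5.46%, 5.54% and 5.62% of that sum in knockout replicates 1 to 5. In wild-type replicates 1 to 5 it equalled 4.73%, 4.86%, 4.91%, 4.67% and 4.56%. The ratio of Celsr3 to the sum was higher in 4 knockout libraries than in any wild-type library, while knockout replicate 1 lay inside the wild-type range. The sum is weighted to the abundant markers Map2, Dcx and Tubb3 (means of 933, 828 and 734 CPM in wild type). The log2 fold change was 0.64 for Tubb3, 0.53 for Dcx and 0.67 for Stmn2, against 0.56 for Celsr3. It was lower than that of Celsr3 for the other 5 markers. The part of neuronal content in the rise of Celsr3 was not tested.

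Celsr2, found in progenitors and neurons alike, had 478, 527, 526, 493 and 515 CPM in the knockout and 418, 427, 461, 439 and 505 CPM in the wild-type libraries. Wild-type replicate 5 lay within the knockout range, and the other wild-type libraries lay under it. The log2 fold change was 0.17 ± 0.05 (SE, edgeR adjusted p = 0.0376). Celsr2 did not pass with upper-quartile scaling (0.14, adjusted p = 0.0772) or with total counts alone (0.13, adjusted p = 0.102). Its call was lost in 8 of 10 fits that left out 1 library, with adjusted p from 0.0608 to 0.0955 without any of knockout replicates 2 to 5 or wild-type replicates 1 to 4.

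Celsr1, the family member of ventricular zone progenitors, showed no shared direction, with 212, 232, 233, 227 and 312 CPM in the knockout and 215, 241, 281, 253 and 280 CPM in wild type. Knockout replicate 5 was the highest of all 10 libraries and knockout replicate 1 the lowest. The log2 fold change was -0.06, with a 95% interval of -0.29 to 0.16 (edgeR adjusted p = 0.725), and -0.17 without knockout replicate 5. Per exon length, Celsr1 made up 24.2% to 30.9% of the summed Celsr level in the knockout and 29.5% to 32.3% in wild type. Celsr3 made up 18.4% to 23.7% and 13.0% to 20.5%, and Celsr2 48.7% to 55.7% and 49.97% to 55.6%.

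Radial glia markers were mixed. Of 8 such genes 5 were higher (Sox2, Nes, Fabp7, Hes5 and Slc1a3) and 1 lower (Prom1), with 2 lower at an unadjusted p under 0.05 and by DESeq2 and 1 lower by limma-voom. Their sum was 2809 to 3275 CPM in the knockout and 2527 to 2654 CPM in wild type. All 8 subpallial markers were called higher by edgeR (8 by DESeq2 and 7 by limma-voom), at 190 to 620 CPM in sum against 95.5 to 256 CPM. Of 8 meningeal and mesenchymal markers 0 were called by edgeR (1 lower at an unadjusted p under 0.05 and 1 lower by DESeq2 and by limma-voom), with sums of 584 to 802 CPM in the knockout and 545 to 785 CPM in wild type. Of the 7 endothelial, 6 microglial and 7 erythroid markers 0 were called by edgeR (at an unadjusted p under 0.05, 3 lower, 1 lower and 1 higher, by DESeq2 0, 1 lower and 0, by limma-voom 0 in each list). The part of these cell types in the changes of the polarity genes was not tested.

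Vangl2, the membrane protein altered in the looptail mouse, was measured at 313, 317, 325, 349 and 361 CPM in the knockout and 336, 332, 410, 387 and 362 CPM in wild type. The knockout libraries lay in the lower part of the joint range, and the groups overlapped. The log2 fold change of -0.14 had a 95% interval of -0.28 to 0.00 (edgeR adjusted p = 0.155). It was -0.29 in the large libraries alone, where it passed (adjusted p = 0.0204), and -0.005 in the small ones. In each size class the genotypes come from different title codes, so these values cannot be told apart from a title code difference. With title code as a block the log2 fold change of Vangl2 was -0.13 (edgeR adjusted p = 0.0531).

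Vangl1 and Prickle1 were scarce. Vangl1, the paralogue of Vangl2, had 4.68 to 8.83 CPM in the knockout and 6.41 to 10.2 CPM in wild type, with a log2 fold change of -0.28 with a 95% interval of -0.66 to 0.10 (edgeR adjusted p = 0.287). Prickle1, a cytoplasmic LIM-domain partner of Vangl, had 7.42 to 12.1 CPM in the knockout and 9.76 to 11.998 CPM in wild type (log2 fold change -0.10, 95% interval -0.42 to 0.22, adjusted p = 0.695). The 3 Vangl and Prickle members gave 0 calls in either direction by edgeR, 0 at an unadjusted p under 0.05 and 0 by DESeq2 or limma-voom. The interval of Vangl1 reaches down to -0.66 and is wider than that of Vangl2, which has far more reads.

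**Figure D2:**
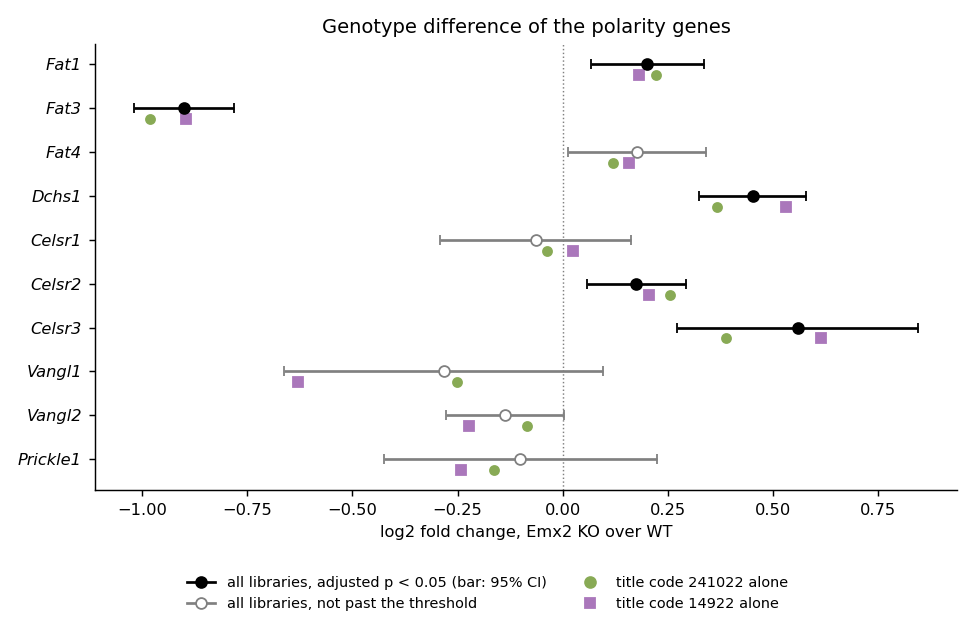
Log2 fold change of knockout over wild type (horizontal axis) for each of the 10 genes (vertical axis), with circles and 95% interval bars from all libraries, filled where adjusted p was under 0.05, and small symbols for each of 2 title codes alone. Fat3 lies at -0.90 over all libraries, -0.98 in code 241022 and -0.90 in code 14922, and Celsr3 and Dchs1 are positive in every estimate.

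No member's genotype difference was found to vary between the title codes 241022 and 14922. In the 8 libraries of these codes the interaction passed for 276 of 18431 genes and for 0 members (edgeR, 0 also at an unadjusted p under 0.05). The largest interaction among the members was 0.39 ± 0.30 on the log2 scale, for Vangl1 (adjusted p = 0.927). Each code holds few libraries of each genotype, and the SE ran from 0.09 for Dchs1 to 0.37 for Prickle1. Differences between the codes as large as many of the genotype differences could therefore be missed. These codes also differ in which genotype has the larger libraries.

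The members differed in level far more than they differed between genotypes. Per kb of exon, Vangl2 was highest in wild type at 52.3 ± 4.73 CPM per kb, followed by Celsr2 at 39.1 ± 3.00, Fat1 at 28.4 ± 2.63 and Dchs1 at 28.3 ± 1.26 (SD, n = 5 each). Celsr1 (23.1 ± 2.52), Fat4 (17.7 ± 1.62), Celsr3 (12.2 ± 2.30) and Fat3 (10.1 ± 0.358) came next. Prickle1 (2.47 ± 0.230) and Vangl1 (1.13 ± 0.195) were lowest. Neighbours in this order did not overlap over the wild-type libraries except Fat1 with Dchs1 and Celsr3 with Fat3.

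In the knockout Dchs1 stood behind Vangl2 and Celsr2 at 38.7 ± 3.33 CPM per kb, ahead of Fat1 at 32.7 ± 1.37, and the other members kept their places. There Vangl2 overlapped Celsr2, Celsr2 overlapped Dchs1, Celsr1 overlapped Fat4 and Fat4 overlapped Celsr3, whereas Celsr3 (18.0 ± 2.58) and Fat3 (5.39 ± 0.439) no longer overlapped. Vangl2 exceeded Vangl1 by 33.9 to 57.9 times per exon length in the wild-type and 36.3 to 71.0 times in the knockout libraries.

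**Figure D3:**
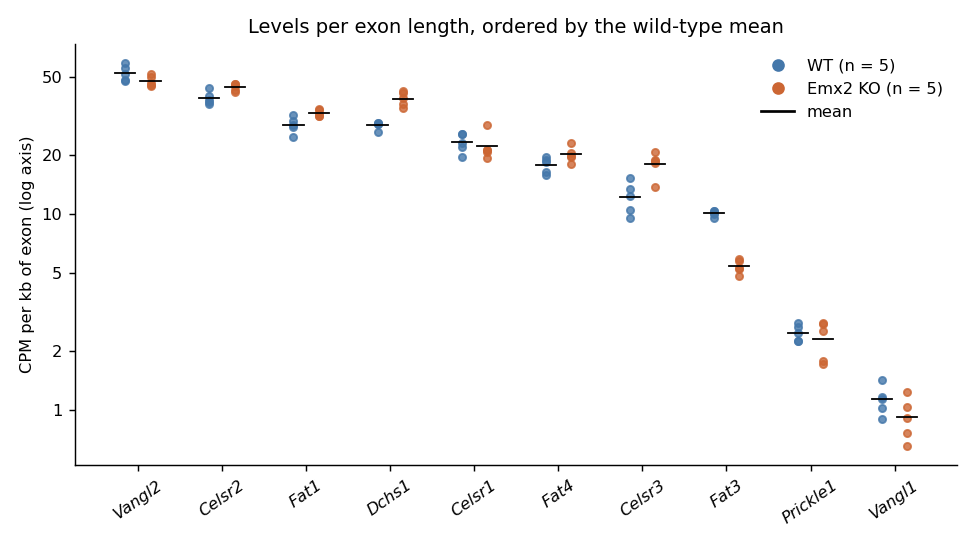
CPM per kb of exon on a log axis (vertical) for the 10 genes (horizontal, ordered by the wild-type mean), with a point for each library and a line at the mean of 5 libraries. Levels span from 52.3 for Vangl2 to 1.13 for Vangl1 in wild type, and Fat3 and Dchs1 are the genes whose knockout and wild-type points are separate.

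Around the members, 5 lists of pathway genes held 66 genes, of which 62 were tested, 8 higher, 8 lower and 46 not called. Over all genes tested 22.4% were called, 13.1% higher and 9.37% lower, and 42% were called among genes of at least 100 CPM. The count over the lists is near the share of all genes. With few genes in each list, the counts of single lists show nothing particular to them. Their median log2 fold change was -0.02, against -0.01 over all genes tested. Among 7 partners of the Fat and Dachsous cadherins, of which 6 were tested, 2 rose and 1 fell. Rere, an atrophin family corepressor, had 205 ± 6.86 CPM in wild type and 243 ± 7.63 CPM in the knockout (0.25 ± 0.04 on the log2 scale, edgeR adjusted p = 0.000483). Fjx1, the relative of the fly Four-jointed kinase that acts on Fat and Dachsous cadherins, went from 101 ± 6.72 to 118 ± 7.49 CPM (0.24 ± 0.06, adjusted p = 0.00966). Dchs2, a paralogue of Dchs1, was lower at 0.263 ± 0.168 against 0.657 ± 0.258 CPM (SD, n = 5 each). Its groups overlapped, and it passed the filter on low counts in 5 of 10 fits that left out 1 library. Of these the call was lost without knockout replicate 3 (log2 fold change -1.31, adjusted p = 0.0521) and without wild-type replicate 2 (-1.29, adjusted p = 0.0539). It was also lost with Y-linked expression as a covariate (adjusted p = 0.0614) and within code 14922 (-1.06, adjusted p = 0.328), and DESeq2 gave it no adjusted p.

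Of 10 tested genes among the other core polarity genes, 3 rose and 1 fell. The receptor gene Fzd3, which works with Celsr3 in axon tracts, had 695 ± 29.1 CPM in wild type and fell to 545 ± 27.6 CPM (SD, n = 5 each, -0.35 ± 0.05 on the log2 scale, edgeR adjusted p = 0.000282). All 5 knockout libraries (510 to 585 CPM) were under the wild-type ones (659 to 723 CPM). The Dishevelled genes, cytoplasmic adaptors of Frizzled, moved up: Dvl3 by 0.32 ± 0.04 (adjusted p = 9.78e-05) and Dvl2 by 0.29 ± 0.04 (adjusted p = 0.000357), with Dvl1 at 0.08 and not called. Scrib, a scaffold that binds Vangl2, rose by 0.25 ± 0.04 (adjusted p = 0.000742). Fzd6 (-0.35, adjusted p = 0.0638), Prickle2 (-0.003) and Ptk7 (0.04) did not pass.

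Among 7 tested Wnt ligands and receptors linked to polarity 3 fell and 0 rose (0 also at an unadjusted p under 0.05 and by DESeq2 and limma-voom). Wnt5a, the ligand of noncanonical Wnt signalling and a marker of the cortical hem, had a log2 fold change of -1.62 ± 0.13 (edgeR adjusted p = 1.05e-05). Its receptor gene Ror1 went from 11.6 ± 1.23 to 7.43 ± 1.5996 CPM (-0.63 ± 0.14, adjusted p = 0.00875). Wnt4 fell from 2.55 ± 0.920 to 1.26 ± 0.261 CPM (-0.98 ± 0.26, adjusted p = 0.0195), with as few as 16 counts in a library. Of 25 alternative fits Wnt5a passed in 25, Ror1 in 21 and Wnt4 in 20. The Wnt4 call was lost with Y-linked expression as a covariate (adjusted p = 0.0635). It was also lost within code 14922 (-0.52), within code 241022 (-1.64), and in the large (-0.50) or small libraries (-1.29) alone. Ror2 (0.09) and Ryk (-0.01) did not pass.

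Of 18 genes of polarity effectors 2 rose and 2 fell. Rac1, a small GTPase of the cytoskeleton, rose by 0.20 ± 0.03 (edgeR adjusted p = 0.00132) and Smurf1, a ubiquitin ligase that acts on Prickle, by 0.29 ± 0.06 (adjusted p = 0.0053) on the log2 scale. Rock1 (-0.16) and Invs (-0.18) were lower, and their calls were lost in 7 and 8 of 10 fits that left out 1 library (adjusted p up to 0.0715 and 0.0911).

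The Hippo pathway, a growth control cascade to which Fat cadherins are linked, had 1 of 21 tested genes higher and 1 lower. Nf2, the upstream regulator merlin, rose by 0.16 ± 0.04 on the log2 scale (edgeR adjusted p = 0.00952). Tead3 had -0.19 (adjusted p = 0.0424), lost in 8 of 10 fits that left out 1 library (adjusted p up to 0.101). The transcriptional effector Yap1 (0.01) and the target genes Ccn1 (0.16) and Ccn2 (0.26) did not pass.

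**Figure D4:**
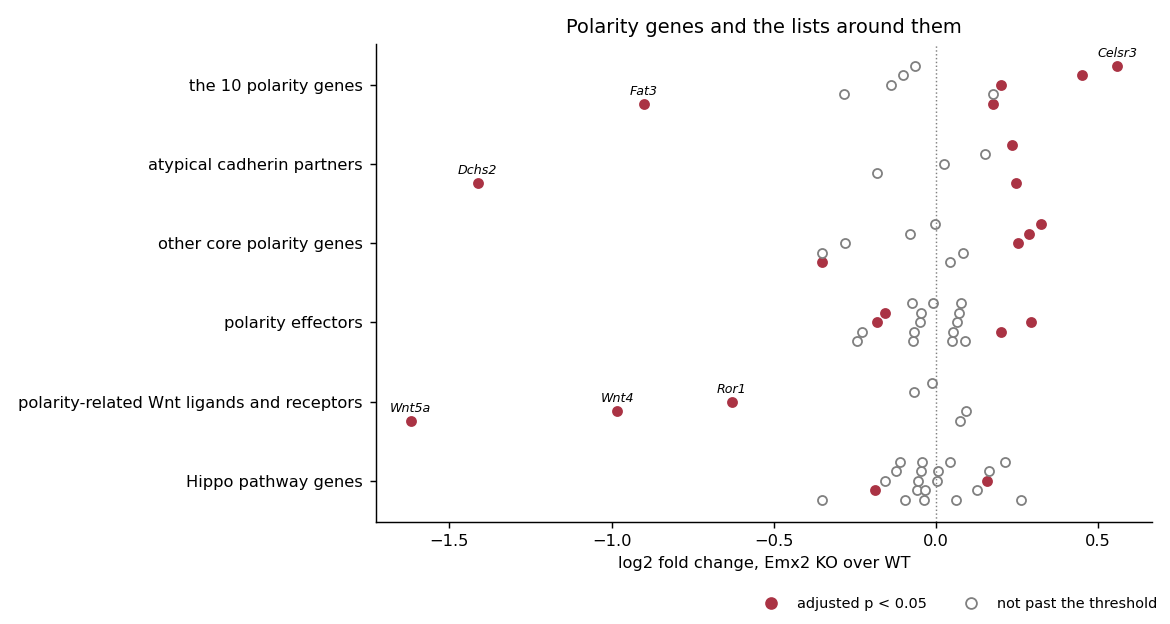
Log2 fold change of knockout over wild type (horizontal axis) for each tested gene of the 10 polarity genes and of 5 pathway lists (vertical axis), filled where adjusted p was under 0.05. Wnt5a at -1.62, Dchs2 at -1.41, Wnt4 at -0.98 and Fat3 at -0.90 lie farthest to the left, while most Hippo pathway genes lie near 0.

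By the correlation of log2 CPM over the 10 libraries, the genes most like Fat3 among 10410 genes of at least 10 CPM were Gm48239 (Pearson r = 0.995), Slc2a13 (0.991) and Plekhh2 (0.987), with log2 fold changes of -1.39, -1.02 and -0.81. Those most like Celsr3 were Unc79 (r = 0.993), Dop1b (0.988) and Mark1 (0.986), with log2 fold changes of 0.58, 0.42 and 0.46. The libraries share the genotype split and these values are descriptions.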

How the data were processed

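The authors deposited raw read counts per Ensembl gene for each library, whole numbers with no normalization. The submitters' processing notes name featureCounts 1.6.3-p1 and STAR 2.7.8a beside bcl2fastq 2.20, and as builds rn6 and GRCm39, with no roles given. The strand setting, read length and annotation release are not given in the sources used here. Symbols matched 52073 of 56748 identifiers. Counts were filtered with filterByExpr (minimum count 10), scaled by TMM and tested with edgeR 4.0.16 (R 4.3.3), quasi-likelihood F test, two-sided, genotype as the only term, Benjamini-Hochberg adjustment over all genes tested, threshold 0.05. Standard errors and 95% intervals were derived from the F statistic. The procedure was tested on simulated data. Levels per length used merged exons of GENCODE M21 (GRCm38), which may differ from the authors' annotation. No libraries were merged, since all 20 within-genotype pairs gave a chi-square of 9.10 to 24.3 per gene, above counting noise.

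Members and lists were chosen with earlier results of these data known. Named genes were all members, Emx2, up to 4 called genes per pathway list by p-value, and the 3 genes most like Fat3 and most like Celsr3. Alternatives were other scalings, filters, DESeq2 1.42.0, limma-voom (limma 3.58.1), model terms and subsets of libraries. The robust fit and the alternatives of the pathway genes were added after seeing the data.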

Additional observations from a re-analysis of the deposited data

Results flagged for a closer look

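For 28 genes (the 10 members, Emx2, its antisense gene Emx2os and 16 called pathway genes) in 2 genotypes, 3 of 56 groups of 5 libraries held a library that stood apart when its distance to the next library was divided by the group's range, where about 5% are expected by chance. Wild-type replicate 1 was the lowest for Dchs1 (ratio 0.821, 288 CPM against 316 in the next). Without it the log2 fold change of Dchs1 was 0.42 (edgeR adjusted p = 0.000642). Knockout replicate 5 was the highest for Celsr1 (ratio 0.790, 312 CPM against 233) and for Dchs2 (ratio 0.719, 0.554 CPM against 0.263).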

How the results depend on the processing

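Fat3 was lower and past the threshold in all 25 alternatives, with log2 fold changes of -0.98 to -0.84, and Dchs1 was higher in all 25 and passed in 24. Celsr3 was higher in all 25 and passed in 22, Celsr2 passed in 10 and Fat1 in 9, both higher throughout. The number of members called higher (4) was 2 with upper-quartile scaling, total counts alone, Y-linked expression as a covariate, title code 14922 alone or a threshold of 0.01, 1 in the large or the small libraries alone, and 0 with title code 241022 alone (edgeR, 2 at an unadjusted p under 0.05). It was 2 to 4 when single libraries were left out. The number called lower (1) became 3 in the large libraries alone, which added Celsr1 (-0.26) and Vangl2 (-0.29). Celsr1 changed sign with title code 14922 alone (0.025) and in the small libraries (0.15), as did Prickle1 with Y-linked expression as a covariate (0.00053).

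All genes called numbered 4074 (4039 with a robust fit), 443 with title code 241022 alone, 1414 with title code 14922 alone, 558 in the small libraries and 2203 at a threshold of 0.01. Of the called genes 58.2% were higher with TMM, 45.9% with upper-quartile scaling and 42.3% with total counts. The TMM factors were 0.978 to 0.988 in the knockout and 1.013 to 1.023 in the wild-type libraries. The choice of scaling therefore moves all genotype differences together. Pathway genes called lower (8) were 5 with no filter, 4 with Y-linked expression as a covariate or in the large libraries, 3 with title code 14922 alone or a threshold of 0.01, 1 among small libraries or with title code 241022 alone, and 4 to 7 without single libraries. Those called higher (8) were 1 with title code 14922 alone or among small libraries, and with title code 241022 alone 0 (edgeR, 7 at an unadjusted p under 0.05). Subsets hold fewer libraries, and otherwise the cause was not tested. No paired analysis was possible because replicate numbers here follow accession order and only name libraries. Title code, which both genotypes share, was fitted as a block and gave 3 members higher, with Fat1 lost (adjusted p = 0.0570), and 1 lower. Among the members Vangl1 and Prickle1 had the fewest reads.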
